A study of Mus musculus with 17 samples.

Results

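Inflammatory cytokines and the proteins that oppose them were measured as transcripts in mouse macrophages lacking or carrying SOCS3, before and during stimulation with IL-6. The 7 genes were Il1a, Il1b and Il1rn of the interleukin 1 family, Il10, Tnf, Il12b and Il6. They were found as the probe sets whose only gene symbol in the platform annotation is one of these names, which gave 8 of the 12488 probe sets on the array, since Il10 is read by 2. Fetal liver cells of SOCS3-/- embryos (KO) or SOCS3+/+ embryos (WT) reconstituted irradiated mice, and macrophages were grown from donor-derived bone marrow cells. All cells were therefore cultured macrophages of marrow that had been rebuilt by transplanted cells. The 6 groups were unstimulated KO macrophages and KO macrophages taken at 100 or 400 min of IL-6, added at 10 ng/ml (3 arrays each), then WT macrophages left unstimulated (2 arrays) or treated in the same way for each time (3 arrays each). The labels do not say whether replicates are separate cultures, mice or donors, so p-values measure only the spread between these 17 arrays, which may be technical.

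IL-1 alpha and IL-1 beta bind the same receptor and drive fever, endothelial activation and the production of further cytokines, and the protein of Il1rn occupies that receptor without signalling. TNF and IL-12 are made by activated macrophages, while IL-10 restrains macrophage cytokine production through the transcription factor STAT3. IL-6 also activates STAT3, through its receptor subunit gp130, and SOCS3 is a feedback inhibitor that binds gp130 and limits that signal.

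Promoter windows of the members were taken from RefSeq sequences of build GRCm38.p6, each holding 250 bases before and 50 bases after an annotated start site, 300 bases in all, written on the strand of the gene. Of the 7 genes, all but Il10 had an entry, with 8 windows, 3 of them for Il1rn. The windows of Il1b (chr2:129371090-129371389, minus strand), of the third start site of Il1rn (chr2:24345121-24345420, plus strand) and of Tnf (chr17:35201958-35202257, minus strand) are printed because these genes set a cytokine, its receptor antagonist and a cytokine with a different course side by side. Capitals mark bases that match a searched motif.
Il1b: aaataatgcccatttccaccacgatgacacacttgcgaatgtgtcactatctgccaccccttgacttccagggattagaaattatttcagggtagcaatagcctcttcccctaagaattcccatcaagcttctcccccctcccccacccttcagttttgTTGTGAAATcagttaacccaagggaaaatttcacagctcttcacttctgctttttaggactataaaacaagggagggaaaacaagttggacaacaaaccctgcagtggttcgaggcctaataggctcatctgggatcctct
Il1rn: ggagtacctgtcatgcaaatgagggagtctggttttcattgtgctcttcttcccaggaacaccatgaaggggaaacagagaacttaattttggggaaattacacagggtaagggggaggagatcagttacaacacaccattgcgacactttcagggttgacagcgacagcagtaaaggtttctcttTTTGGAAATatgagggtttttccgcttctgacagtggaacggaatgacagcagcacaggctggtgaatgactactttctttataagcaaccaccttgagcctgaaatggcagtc
Tnf: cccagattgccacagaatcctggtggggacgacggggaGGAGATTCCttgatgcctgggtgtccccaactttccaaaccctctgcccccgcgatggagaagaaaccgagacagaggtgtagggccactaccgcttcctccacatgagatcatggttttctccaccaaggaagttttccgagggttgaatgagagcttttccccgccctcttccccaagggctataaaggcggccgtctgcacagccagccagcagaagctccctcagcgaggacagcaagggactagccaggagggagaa

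The motifs searched on both strands were TTCNNNGAA, a form bound by STAT proteins, GGANNTTCC for NF-kappaB, TGANTCA for AP-1, TTNNGNAAT for C/EBP proteins and GAAANNGAA for interferon response elements. The Il1b window held TTGTGAAAT, a match to the C/EBP form, from 91 bases before the start site, and the Il1rn window held TTTGGAAAT, a match to the same form. The Tnf window held GGAGATTCC, a match to the NF-kappaB form, from 212 bases before the start site. The first Il1rn window, at another start site, held TGAGTCA for AP-1, and the second overlaps the third and holds the same C/EBP match. Among the windows not printed, Il6 held GGATTTTCC for NF-kappaB, TGAGTCA for AP-1 and TTGTGCAAT for C/EBP, Il1a held TGACTCA for AP-1, and Il12b held no match. No member window held the STAT or the interferon form, and Il10 had no window to search. Of 32851 promoter windows of the same length, 8.3% held the STAT form, 4.26% the NF-kappaB form, 7.81% the AP-1 form, 11.5% the C/EBP form and 8.56% the interferon form, and none of these motifs overlapped another within a member window. Il1a and Il1b lie next to each other on chromosome 2 with 0 protein-coding genes between them.

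The deposited value is a linear intensity per probe set and array, and intensities below are values after quantile normalization between arrays. A probe set was tested with limma when it lay above the 40th percentile of its array on at least 2 of the 17 arrays, values under a floor of 22.01 were set to that floor for the log2 scale, and called means an adjusted p under 0.05 over the 9871 probe sets tested. Il1b, Il1rn, Tnf and the first Il10 probe set were tested. Il1a, Il12b and Il6 were above the 40th percentile on 1, 1 and 0 arrays and were too dim to enter, and the other Il10 probe set is one of the 66 array control probe sets, which were left out. The Socs3 reading of 1 array goes against its label, and replicate 3 stands apart. Socs3, the targeted gene, had deposited intensities of 29.8 to 319.7 and 14.9 to 160.2 on its 2 probe sets on 8 of the KO arrays, against 479.7 to 1333 and 429.5 to 2647.6 on the 6 stimulated WT arrays. The 2 unstimulated WT arrays read 103.3 to 175.1 and 72.9 to 110.7, within the range of those KO arrays. Highest among the 8 was the array labelled KO 100 min replicate 3, at 319.7 and 160.2. The remaining KO array, labelled 400 min replicate 3, read 784.3 and 883.7 for Socs3. Results of the tested members in KO cells at 400 min are therefore given also without it, while values of other genes include it. Along the first principal component 4 of the 5 replicate 3 arrays lay at 26.61 to 58.08, against -30.31 to 2.27 for the arrays of replicates 1 and 2. The remaining replicate 3 array, that labelled KO 400 min, lay at 0.89. Values within replicates 1 and 2 are given beside many of the member results. Normalized Eif2s3y, a Y-linked gene, was 7.67 to 112 on KO arrays and 245 to 790 on WT arrays, and Xist was 228 to 993 on KO arrays and 11.1 to 188 on WT arrays, so genotype cannot be told apart from this difference. These KO ranges hold all 9 KO arrays, so the array labelled KO 400 min replicate 3 read like the other KO arrays for both genes. Of 12 macrophage markers on the array, 10 were above the 40th percentile on all 17 arrays, including Csf1r, Adgre1 and Cd68. Among single cell type markers tested, only Fcgr1, an Fc receptor of macrophages, was called, at 1.96 (SE 0.37) on the log2 scale in KO cells at 400 min against KO unstimulated.

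**Figure D1:**
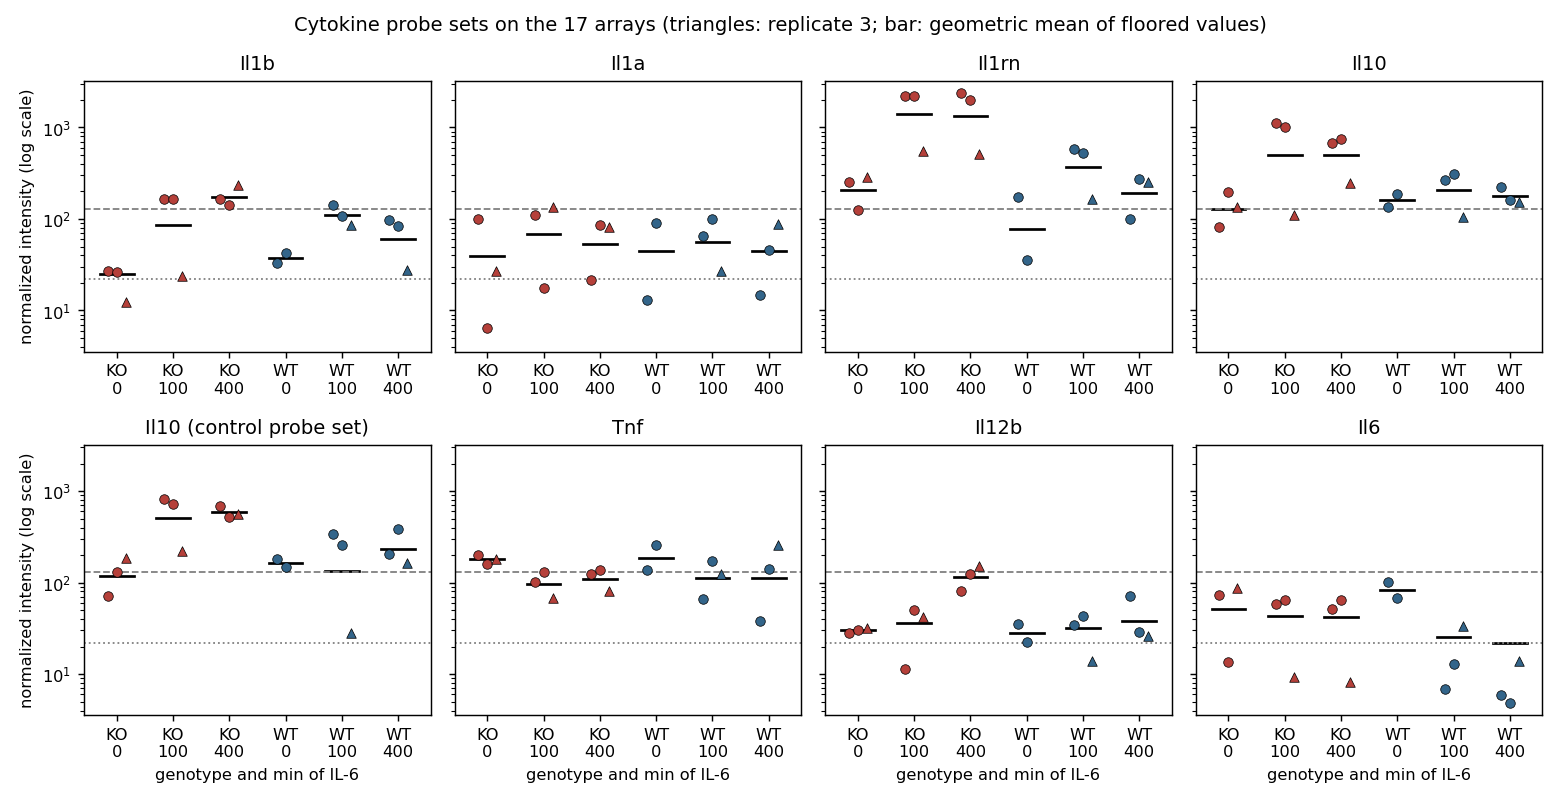
Normalized intensity (log axis) of the 8 member probe sets on each array, in KO groups (red) and WT groups (blue) at 0, 100 and 400 min of IL-6. Triangles are replicate 3 arrays and bars are geometric means of values set to the floor, the dotted line is the floor of 22.01 and the dashed line is 129.4, the intensity at the 40th percentile of the lowest array. The Il1b values of KO cells at 400 min all lie above every unstimulated value.

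Il1b, which encodes the secreted IL-1 beta precursor, rose in KO cells given IL-6 for 400 min and was the only tested member called in any comparison. At 400 min the normalized intensities of Il1b were 164, 141 and 235 on the KO arrays, against 27.2, 26.3 and 12.3 on the unstimulated KO arrays. The groups did not overlap, and 1 of the unstimulated arrays lay under the floor, so the change on the floored scale is an understatement. The log2 change of Il1b was 2.81 (SE 0.64, 95% interval 1.43 to 4.19, adjusted p = 0.0419), a 7.01-fold higher mean, and it ranked 35 from the top among 9871 probe sets. The size depends on the floor: the log2 change was 1.94 (adjusted p = 0.0335) with the floor at the 20th percentile and 3.04 (adjusted p = 0.0344) at the 5th. This was 1 called member of 4 tested, where 1.82% of all tested probe sets were called. An unadjusted p under 0.05 was found for 3 of the 4, and for 1202 of all 9871 probe sets. Il1b was above the 40th percentile of its array on 6 arrays, 5 of them stimulated KO arrays and 1 a WT array at 100 min, and thus entered the test through groups where it was high.

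The call of Il1b at 400 min was close to the threshold. It was kept in 5 and lost in 12 of the 17 fits that left out 1 array, with adjusted p between 0.00413 and 0.137, and the log2 change stayed between 2.60 and 2.97. Without the array labelled KO 400 min replicate 3, where Il1b was highest, the change was 2.60 (adjusted p = 0.116). Within replicates 1 and 2 it was 2.51 (adjusted p = 0.00162), and within replicate 3 it was 3.41. Beside Il1b and the dim Il12b, the summed normalized intensity of the 7 dendritic cell markers on the array was 2083 to 2187 in KO cells at 400 min, against 1334 to 1455 in unstimulated KO cells. That sum was 1230 to 1636 in KO cells at 100 min, and in WT cells it was 1577 to 2002 unstimulated, 1092 to 1320 at 100 min and 1158 to 1664 at 400 min. Of these 7 markers Flt3 was above the 40th percentile on all 17 arrays, while Zbtb46 was at or under the floor on 6 arrays and Ccl17 on 2, and the part of these cells in the result was not tested. The summed macrophage markers were 90361 to 91213 in KO cells at 400 min, against 93069 to 106126 in unstimulated KO cells.

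At 100 min Il1b read 165, 164 and 23.6 on the KO arrays. The arrays of replicates 1 and 2 were as high as at 400 min, while that of replicate 3 was as low as the unstimulated arrays. The log2 change against unstimulated KO cells was 1.78 (SE 0.64, adjusted p = 0.534) over all arrays, and 2.62 (adjusted p = 0.00178) within replicates 1 and 2. In limma's test at 100 min 0 of the 4 tested members were called, where 0.577% of probe sets were. An unadjusted p under 0.05 was found for 3 of the 4, and for 609 of all 9871 probe sets. Without the KO 100 min replicate 3 array Il1b and Il10 were called. Between KO cells at 400 and at 100 min, 0 members and 0% of probe sets were called, with Il1b at 1.03 (95% interval -0.35 to 2.41). There 0 members and 891 of all 9871 probe sets had an unadjusted p under 0.05.

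In WT cells Il1b read 33.4 and 42.8 unstimulated, 141, 108 and 85.6 at 100 min, and 97.3, 83.2 and 27.5 at 400 min. All arrays at 100 min lay above the unstimulated ones, while those at 400 min overlapped them. The log2 change was 1.53 (95% interval -0.01 to 3.07, adjusted p = 0.814) at 100 min and 0.68 (95% interval -0.86 to 2.22, adjusted p = 0.966) at 400 min. Within replicates 1 and 2 the change of Il1b at 100 min was 1.71 (adjusted p = 0.0458), the only member call in WT cells in that setting. In limma's test of WT cells against unstimulated cells, 0 members were called at either time, where 0.0101% of probe sets were called at 100 min and 0.0101% at 400 min. An unadjusted p under 0.05 was found for 1 member at 100 min, Il1rn, and for 0 at 400 min, and between 400 and 100 min 0 members and 0% of probe sets were called, again with 0 under an unadjusted 0.05. Of all 9871 probe sets 604, 618 and 622 had such a p in these WT comparisons, in the same order.

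Il1a, whose product binds the same receptor as IL-1 beta, was dim and without a pattern shared with its neighbour Il1b. It read 101, 6.44 and 26.9 on unstimulated KO arrays, 111, 17.5 and 135 at 100 min, and 21.6, 85.5 and 81.8 at 400 min. On WT arrays it read 13.1 and 91.1 unstimulated, 65.7, 100.3 and 26.9 at 100 min, and 14.7, 45.9 and 87.8 at 400 min. All 6 groups overlapped their neighbours in the order of means, and 5 of the 17 values were at or under the floor.

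Il1rn, the receptor antagonist, had its highest values in stimulated KO cells but was not called. In KO cells it read 2218, 2199 and 558 at 100 min and 2361, 1976 and 515 at 400 min, against 251, 125 and 284 unstimulated. The stimulated arrays all lay above the unstimulated ones, with replicate 3 the lowest at both times. The log2 change of Il1rn was 2.75 (SE 0.79, 95% interval 1.04 to 4.46, adjusted p = 0.284) at 100 min and 2.69 (SE 0.79, 95% interval 0.98 to 4.40, adjusted p = 0.132) at 400 min. Within replicates 1 and 2 these changes were 3.64 (adjusted p = 0.083) and 3.61 (adjusted p = 0.0496), and within replicate 3 they were 0.97 and 0.86. Without the array labelled KO 400 min replicate 3 the change at 400 min was 3.38 (adjusted p = 0.0647).

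In WT cells Il1rn read 175 and 35.3 unstimulated, 585, 521 and 166 at 100 min, and 98.7, 276 and 252 at 400 min. The unstimulated arrays lay far from each other and overlapped both stimulated groups. The log2 change was 2.24 (95% interval 0.33 to 4.15, adjusted p = 0.76) at 100 min and 1.28 (95% interval -0.63 to 3.19, adjusted p = 0.918) at 400 min.

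The balance of cytokine and antagonist was compared within each array as log2 Il1b minus log2 Il1rn, a difference that removes what the array scales in common. In KO cells the difference averaged -4.02 at 100 min and -3.05 unstimulated, a change of -0.97 toward the antagonist. The exact two-sided permutation test gave p = 0.1, the smallest that 3 arrays against 3 allow. With the floor at the 20th percentile this change was -1.52 (exact permutation p = 0.1). With the floor at the 5th percentile it was -0.74 (exact permutation p = 0.4), and with the deposited scaling alone -0.98 (exact permutation p = 0.2). The separation of these groups at 100 min therefore depended on the floor and the scaling. At 400 min the KO mean was -2.93, a change of 0.12 against unstimulated cells (exact permutation p = 1). The KO arrays at 400 min stood at -3.85, -3.81 and -1.14, the last being the array whose Socs3 goes against its label, and without that array the change was -0.78 (exact permutation p = 0.2), toward the antagonist. The sign also turned with the floor at the 20th percentile, to -0.75, and without KO unstimulated replicate 3, to -0.20. In WT cells the changes were -0.70 at 100 min and -0.60 at 400 min (exact permutation p = 0.7 each), and with 1 array left out they ran from -2.04 to 0.63 and from -1.93 to 0.74. None of the 6 such comparisons passed 0.05, which groups of this size cannot reach.

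**Figure D2:**
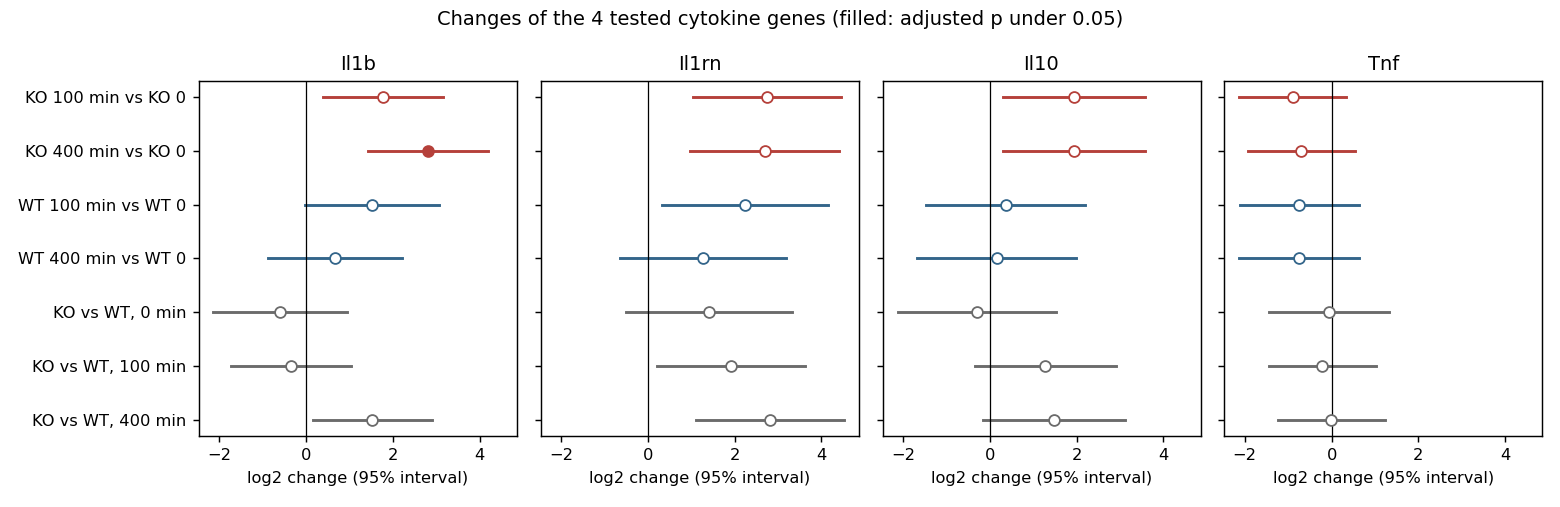
Log2 changes of Il1b, Il1rn, Il10 and Tnf with 95% intervals for 4 stimulation comparisons (KO red, WT blue) and 3 comparisons of KO with WT (grey); filled points are called. Only Il1b in KO cells at 400 min, at 2.81, is filled.

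Il10, the anti-inflammatory cytokine, was higher on KO arrays of replicates 1 and 2 after IL-6, on both of its probe sets. The first probe set read 1119, 1023 and 111 in KO cells at 100 min and 676, 739 and 247 at 400 min, against 81.2, 199 and 136 unstimulated. At 100 min the replicate 3 array fell within the unstimulated range, and at 400 min the groups did not overlap. The log2 change was 1.95 (SE 0.76, 95% interval 0.31 to 3.58, adjusted p = 0.624) at 100 min and 1.94 (SE 0.76, 95% interval 0.30 to 3.57, adjusted p = 0.297) at 400 min. Within replicates 1 and 2 the changes were 3.07 (adjusted p = 0.0122) and 2.47 (adjusted p = 0.021), and within replicate 3 they were -0.30 and 0.86. Without the array labelled KO 400 min replicate 3 the change of Il10 at 400 min was 2.44 (adjusted p = 0.208).

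The array control probe set of Il10 gave a second reading of the same RNA. It read 814, 724 and 223 in KO cells at 100 min and 688, 520.2 and 564 at 400 min, against 70.8, 129 and 184 unstimulated. Here neither stimulated group overlapped the unstimulated one, and the largest disagreement between the probe sets in KO cells was at 400 min in replicate 3, at 564 against 247 on the first. With control probe sets entered in the fit, the log2 changes in KO cells were 2.10 (adjusted p = 0.571) and 2.30 (adjusted p = 0.208). In WT cells they were -0.29 (adjusted p = 0.973) at 100 min, where the first probe set gave 0.37, and 0.51 (adjusted p = 0.98) at 400 min. Over the 17 arrays, which share their RNA and normalization between the 2 probe sets, Pearson's r of the log2 values was 0.804 and Spearman's rho 0.814.

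**Figure D3:**
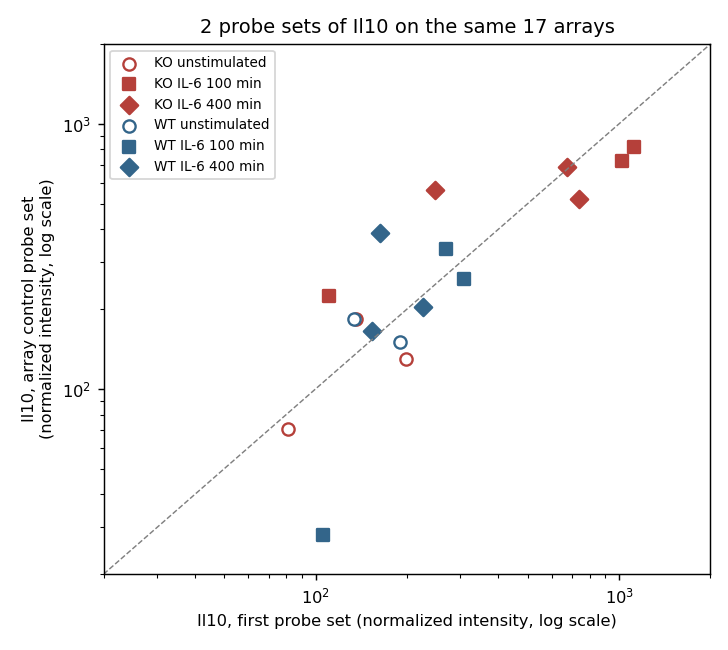
Normalized intensity of Il10 on the first probe set and on the array control probe set, both on log axes, for the 17 arrays by genotype and time; the dashed line marks equal values. The 4 KO arrays of replicates 1 and 2 after IL-6 lie at the upper right, with first probe set values of 676 to 1119.

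In WT cells Il10 on the first probe set read 134 and 189 unstimulated, 269, 308 and 106 at 100 min, and 226, 162 and 153 at 400 min, with overlap between all of these groups. Its log2 change was 0.37 (95% interval -1.46 to 2.20, adjusted p = 0.966) at 100 min and 0.16 (95% interval -1.67 to 1.98, adjusted p = 0.995) at 400 min. Within replicates 1 and 2 the WT changes of Il10 were 0.85 (95% interval -0.09 to 1.80, adjusted p = 0.759) and 0.26 (95% interval -0.68 to 1.21, adjusted p = 0.884).

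Tnf, a cytokine of activated macrophages that signals through its own pair of receptors, did not follow Il1b. In KO cells it read 102, 131 and 67.4 at 100 min and 123, 136 and 81.2 at 400 min, against 198, 162 and 181 unstimulated. All stimulated KO arrays lay below all unstimulated KO arrays. The log2 change was -0.89 (95% interval -2.13 to 0.34, adjusted p = 0.959) at 100 min and -0.70 (95% interval -1.93 to 0.54, adjusted p = 0.723) at 400 min. In WT cells Tnf read 136 and 258 unstimulated, 65.7, 172 and 125 at 100 min, and 38.1, 142 and 255 at 400 min, with overlapping groups. The WT changes were -0.74 (95% interval -2.12 to 0.64) and -0.75 (95% interval -2.13 to 0.63). Replicates 1 and 2 alone gave changes of Tnf in KO cells of -0.63 and -0.47, so the sign did not rest on replicate 3. Leaving out the KO 400 min array in doubt gave Tnf a change of -0.47 at 400 min (adjusted p = 0.871).

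Il12b, the p40 subunit shared by IL-12 and IL-23, read 80.3, 124 and 151 on the KO arrays at 400 min, above every other array of the series. The KO arrays read 28.4, 30.0 and 31.6 unstimulated and 11.4, 49.8 and 42.6 at 100 min. On WT arrays it read 35.6 and 22.5 unstimulated, 34.5, 43.2 and 14.0 at 100 min, and 70.7, 28.9 and 26.4 at 400 min. Being above the 40th percentile on 1 array, Il12b was not tested. With no filter on dim probe sets its log2 change at 400 min in KO cells was 1.93 (SE 0.43, adjusted p = 0.0479), and it was 1.77 within replicates 1 and 2 and 2.25 within replicate 3. In that unfiltered setting Il1b had an adjusted p of 0.0544.

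Il6, the gene of the added cytokine itself, was dim on all arrays. It read 73.8, 13.5 and 86.2 on unstimulated KO arrays, 57.8, 65.1 and 9.19 at 100 min, and 50.9, 65.1 and 8.30 at 400 min. On WT arrays it read 102 and 67.5 unstimulated, 6.81, 13.0 and 33.3 at 100 min, and 5.98, 4.84 and 13.8 at 400 min. The stimulated WT arrays lay below the unstimulated ones without overlap, and 5 of those 6 were at or under the floor. With no filter the WT changes were -1.71 (adjusted p = 0.788) and -1.91 (adjusted p = 0.616), and a level this close to the floor limits what they can show.

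KO cells were then set against WT cells at the same time. Unstimulated, 0 of the 4 tested members were called and 0% of probe sets. In limma's test 0 members and 591 of all 9871 probe sets had an unadjusted p under 0.05. The log2 differences of Il1b, Il1rn, Il10 and Tnf were -0.59, 1.40, -0.29 and -0.06, and all of their 95% intervals held 0. With replicate 3 as a batch block these differences were -0.28, 1.70, 0.14 and -0.10. For Il1b every unstimulated KO array, at 27.2, 26.3 and 12.3, the last of replicate 3, lay below both WT arrays, at 33.4 and 42.8. This lower start is part of the response difference of Il1b given below. At 100 min 0 members were called, where 0.0405% of probe sets were. An unadjusted p under 0.05 was found for 483 of all 9871 probe sets and for 1 member. That member was Il1rn, at 1.92 (95% interval 0.21 to 3.62, adjusted p = 0.931), with KO arrays at 2218, 2199 and 558, against WT arrays at 585, 521 and 166.

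At 400 min 0 members were called between KO and WT cells, where 0.365% of probe sets were. An unadjusted p under 0.05 was found for 860 of all 9871 probe sets and for 2 members. Il1rn differed by 2.82 (SE 0.79, 95% interval 1.11 to 4.52, adjusted p = 0.219), with no KO array below any WT array. Il1b differed by 1.53 (95% interval 0.15 to 2.91, adjusted p = 0.502), also without overlap, and Il10 by 1.49 (95% interval -0.15 to 3.12, adjusted p = 0.609). The differences of Il1rn, Il1b and Il10 within replicates 1 and 2 were 3.71 (adjusted p = 0.0707), 0.75 (adjusted p = 0.235) and 1.88 (adjusted p = 0.09). Without the array labelled KO 400 min replicate 3 they were 3.51 (adjusted p = 0.0963), 1.32 (adjusted p = 0.636) and 1.99 (adjusted p = 0.471). Tnf differed by -0.0037 over all arrays, with a 95% interval of -1.24 to 1.23, by 0.82 within replicates 1 and 2, by -1.65 within replicate 3 and by 0.22 without that KO array.

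Whether the response to IL-6 differed between genotypes was tested as the KO change minus the WT change. At 100 min 0 members and 0% of probe sets were called, with 0 members at an unadjusted p under 0.05, and at 400 min again 0 members and 0%, with 1 member under 0.05. That member was Il1b at 400 min, at 2.13 (SE 0.96, 95% interval 0.06 to 4.20, adjusted p = 0.899). Il1rn was at 1.41 (95% interval -1.15 to 3.98) and Il10 at 1.78 (95% interval -0.67 to 4.23) at 400 min. With replicate 3 as a batch block Il1b was at 1.81 (adjusted p = 0.751), Il1rn at 1.11 (adjusted p = 0.908) and Il10 at 1.35 (adjusted p = 0.843) at 400 min. Replicates 1 and 2 alone gave 1.25 (adjusted p = 0.34) for Il1b, 2.53 (adjusted p = 0.632) for Il1rn and 2.21 (adjusted p = 0.342) for Il10 at 400 min. In that setting Il10 at 100 min was at 2.22 (adjusted p = 0.581) and Il1b at 0.91 (adjusted p = 0.805). Without the array labelled KO 400 min replicate 3 the differences at 400 min were 1.92 (adjusted p = 0.817), 2.10 (adjusted p = 0.818) and 2.28 (adjusted p = 0.786) for Il1b, Il1rn and Il10. The call of Il1b in KO cells and its absence in WT cells is therefore not a shown difference between the genotypes.

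The members did not share 1 profile over the arrays. On the log2 values of the 17 arrays, Pearson's r was 0.733 between Il1b and Il10, 0.753 between Il1rn and Il10 and 0.585 between Il1b and Il1rn, with Spearman's rho of 0.787, 0.637 and 0.564. It was -0.423 between Il1b and Tnf (rho -0.51) and -0.009 between Il1a and Il1b (rho -0.065). Among all named genes tested, Isg15, a ubiquitin-like protein induced by interferon, was most like Il1b, at an r of 0.889 (rho 0.855). It was followed by Sap30bp, at 0.853 (rho 0.769), and Gbp2, an interferon-inducible GTPase, at 0.85 (rho 0.848). The nearest to Il1rn was Eif1a, a translation initiation factor, at 0.939 (rho 0.914), and the nearest to Il10 was Tha1, a threonine aldolase, at 0.885 (rho 0.811). The nearest to Tnf was Igbp1, a phosphatase-binding protein, at 0.818 (rho 0.742), which was 0.616 without the 2 arrays farthest from the median. Without their own 2 farthest arrays the values for Isg15, Eif1a and Tha1 were 0.928, 0.919 and 0.855. The points share arrays, normalization and groups, and these genes were picked as the highest among all named genes compared.

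Around the members, 6 lists of pathway genes covered 132 genes, of which 92 were tested. In KO cells at 400 min against unstimulated cells 8 of the 92 were called higher and 2 lower, with a median log2 change of 0.26, where 1.82% of all tested probe sets were called and their median change was -0.04. At 100 min 5 were higher and 0 lower, where 0.577% of all tested probe sets were called, and in WT cells 0 were called at either time. The KO counts within replicates 1 and 2 were 11 higher and 4 lower at 400 min and 6 higher and 1 lower at 100 min. Of all tested probe sets 2.8% were called at 400 min and 1.19% at 100 min in that setting. Without the array labelled KO 400 min replicate 3 the counts at 400 min were 8 higher and 3 lower. In that fit 1.7% of all tested probe sets were called. Values of single list genes at 400 min, given below, include that array. The lists and their members were chosen for the pathway, with earlier results of these data known. The counts therefore describe these lists and cannot test for an excess over all probe sets. A bulk sample cannot tell more cells making a transcript from more transcript per cell.

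Of the 11 tested receptors and decoys, each read by its brightest probe set, 0 were called in any comparison. Another probe set of 1 of them, Il6st, was called in KO cells at 400 min, at 1.48 (adjusted p = 0.0396). Il12rb2, a subunit of the IL-12 receptor, was at 1.87 (adjusted p = 0.291) in KO cells at 400 min. Tnfrsf1a, the main signalling receptor for TNF, averaged 4636 in KO cells at 400 min and 1722 in unstimulated KO cells, a log2 change of 1.48 (adjusted p = 0.153). Among 7 tested genes of IL-1 maturation and release, Casp1, the protease that cuts the IL-1 beta precursor, rose in KO cells at 400 min. It read 3827, 3335 and 3442 there, against 1322, 1418 and 1099 unstimulated, a log2 change of 1.47 (SE 0.32, adjusted p = 0.0325). Casp4, which senses cytosolic lipopolysaccharide, was higher in KO than in WT cells at 400 min, by 2.70 (SE 0.53, adjusted p = 0.0494). Its difference was 2.91 (SE 0.59, adjusted p = 0.354) before IL-6, with means of 343 in KO and 52.0 in WT cells, and the KO response minus the WT response at 400 min was -0.21 (adjusted p = 0.989). Capn2, a calpain protease, fell by 0.99 (adjusted p = 0.0219) in KO cells at 400 min.

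Among 22 tested signalling genes, Myd88, the adaptor of IL-1 and most Toll-like receptors, rose by 2.16 (SE 0.31, adjusted p = 0.00347) in KO cells at 400 min. It averaged 7021 there and 1668 in unstimulated KO cells. Tlr6, a Toll-like receptor for lipopeptides, rose by 2.03 (adjusted p = 0.0164), and Mapk14, the p38 alpha kinase, fell by 1.06 (adjusted p = 0.0444). Map3k8, a kinase that couples these receptors to ERK, rose by 1.66 (adjusted p = 0.0376) at 100 min.

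Among 16 tested negative regulators, each read by its brightest probe set, 1 rose at 100 min and 2 rose at 400 min in KO cells. Another probe set of Nfil3 was called higher at both times. Zfp36, which speeds the decay of Tnf and other cytokine mRNAs, averaged 6859 at 100 min and 6473 at 400 min, against 1705 unstimulated. Its log2 changes were 2.03 (adjusted p = 0.0131) and 1.94 (adjusted p = 0.0101). Il18bp, a secreted protein that blocks IL-18, read 595, 675 and 427 at 400 min, against 80.6, 119 and 101 unstimulated, and rose by 2.49 (adjusted p = 0.00995). Socs1, an inhibitor of interferon receptor signalling, was higher in KO than in WT cells at 400 min, by 2.58 (SE 0.46, adjusted p = 0.0336).

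Of 16 tested other cytokines 0 were called in any comparison, and Tnfsf9, the 4-1BB ligand, was at 1.54 (adjusted p = 0.11) in KO cells at 400 min. Il9, a cytokine mainly of T cells, was at -1.15 (adjusted p = 0.388) in the same comparison. Among 20 tested inflammatory targets, the chemokines Ccl2, Ccl4 and Ccl7 rose in KO cells at both times and were higher in KO than in WT cells at 400 min. Ccl7 averaged 10414 in KO cells at 400 min and 75.0 in unstimulated KO cells, and its log2 change was 7.04 (SE 1.05, adjusted p = 0.00367). Ccl2 changed by 4.67 (adjusted p = 0.0179) and Ccl4 by 2.66 (adjusted p = 0.00109) in the same comparison. For a gene with several probe sets the brightest was counted. Among 23 other tested probe sets of list genes, those of Nfil3, an IL-10-responsive transcription factor, at 100 and 400 min and of Il6st, which encodes gp130, at 400 min were called in KO cells, at 2.51, 2.18 and 1.48.

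**Figure D4:**
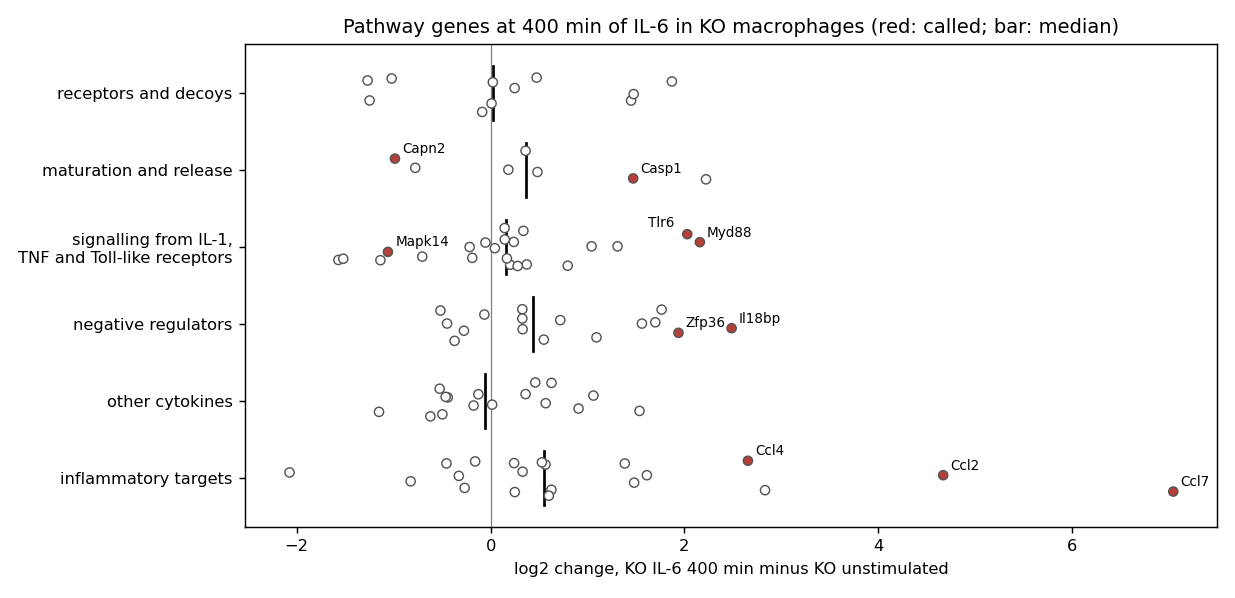
Log2 change in KO cells at 400 min of IL-6 minus unstimulated KO cells for each tested gene of the 6 pathway lists (points, spread vertically for legibility). Red points are called, with names, and black bars are list medians. The chemokine Ccl7 lies farthest right at 7.04.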

How the data were processed

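RNA from 17 samples had been hybridised to 1 array each. The authors deposited 1 linear intensity per probe set and array; no source used here gives the software, background correction or scaling. Trimmed by 2% at each end, the mean intensity was 499.5 to 499.9 on every array, so arrays had been scaled, and medians ran from 164.25 to 216.95, a range of 0.4 on the log2 scale. The values were therefore quantile normalized between arrays, floored at their 10th percentile, 22.01, and log2 transformed. A fold against values at the floor is an understatement. There are no detection calls, and the number of arrays limits the precision. No pair of arrays held identical values.

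Tests used limma 3.58.1 in R 4.3.3, with 1 mean per group over 17 arrays, 11 comparisons, two-sided moderated tests and Benjamini-Hochberg adjustment over the 9871 probe sets tested in each. Every adjusted p in the text is from that test unless named exact. The fit was tested on simulated data. The balance of Il1b and Il1rn was tested by exact permutation. The platform annotation, which can be old, gave 1 symbol to 10855 probe sets, several to 396 and none to 1237. The members and gene lists were chosen with earlier results of these data known. From each list up to 4 genes were named, called ones with the largest changes first, or the largest changes where none was called. The gene with the most similar profile was named for each tested member by Pearson's r. Alternatives were the deposited scaling, other floors and filters, the replicate as a block, replicates 1 and 2 alone, trend and robust settings, the groups compared alone and each array left out.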

Additional observations from a re-analysis of the deposited data

Results flagged for a closer look

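A few readings outside the tested probe sets stood above the unstimulated level, with no overlap between the arrays compared. Groups this small can separate by chance, and the share of all probe sets that separate in this way is not given. The same limit holds for all groups said above not to overlap. Il12b, too dim to be tested, had log2 intensities 1.93 higher in KO cells at 400 min than in unstimulated KO cells, with a lowest stimulated value of 80.3 and a highest unstimulated value of 31.6. The array control probe set of Il10, left out of the tests with the other controls, was 2.10 higher in KO cells at 100 min (lowest 223, against a highest unstimulated value of 184) and 2.30 higher at 400 min (lowest 520.2, against 184).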

How the results depend on the processing

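The number of members called moved under a few settings. In KO cells at 100 min it was 0, and 2 (Il1b and Il10) within replicates 1 and 2, with 0 to 2 when 1 array was left out, the 2 without KO 100 min replicate 3. In KO cells at 400 min it was 1, and 0 with the deposited scaling alone (Il1b at 2.78, adjusted p = 0.0621), 0 with a filter above the median on 3 arrays, where Il1b was not tested, and 3 (Il1b, Il1rn and Il10) within replicates 1 and 2. With 1 array left out it was 0 to 1, and Il1b kept its call without any 1 of the KO 100 min arrays, WT 100 min replicate 3 or WT 400 min replicate 3, and lost it without any 1 of the other 12. With no filter on dim probe sets the 1 call was Il12b in place of Il1b. In WT cells at 100 min it was 0, and 1 (Il1b) within replicates 1 and 2. In the other 8 comparisons it stayed at 0 under all settings run. No call of a member was opposed in sign by another setting. The change of Il1b minus Il1rn stayed without a call; in KO cells at 100 min it ranged from -1.52 to -0.57.

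Over all probe sets, calls in KO cells were 57 at 100 min, 0 with only the groups compared, 117 within replicates 1 and 2 and 24 to 79 with 1 array left out. At 400 min they were 180, 52 with only the groups compared, 276 within replicates 1 and 2, 332 with replicate 3 as a batch block, 290 with trend and robust settings and 73 to 229 with 1 array left out. Between KO and WT cells they were 4 at 100 min (0 to 30 over all settings) and 36 at 400 min (2 to 122). The 7 other comparisons had 0 or 1 and reached at most 23.

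Same-numbered arrays deviated together weakly: r was -0.016 to 0.236 over 40 pairs, with a median of 0.057 and 11 pairs over 0.1. For arrays of different number the median was -0.041 over 80 pairs, with 2 over 0.1. Of the 17 arrays 11 correlated best with their own number. Some structure was thus shared by number, which the main fit left out, since the labels do not say what the numbers stand for. With the replicate number as a block 1 member was called at 400 min in KO cells, Il1b at 2.81 (adjusted p = 0.0197), and the calls over all probe sets were 86 at 100 min and 305 at 400 min.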
